A study of Mus musculus with 16 samples.

Results

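The effect of dimethyl α-ketoglutarate (αKG) on gene expression in the first hours of osteoclast formation was read from 4 of the 16 arrays of a time course: 2 arrays of αKG-treated cells, at 3 h and 6 h of RANKL, and 2 arrays of control cells at the same times. The cells were bone marrow-derived macrophages of male C57BL/6 mice aged 5 weeks, grown with macrophage colony-stimulating factor (M-CSF) and RANKL, the cytokine that turns such macrophages into bone-resorbing osteoclasts. αKG cultures received 1 mM dimethyl αKG, and control cultures received DW, as the labels name it. The labels name the 2 groups αKG_Early and Early, here αKG and DW, with 1 array for each treatment and time. The labels do not state whether the arrays represent separate cultures or mice. The p-values reflect no more than the spread among the arrays, which may be technical. In the fit used here, that spread is the change of the αKG difference between 3 h and 6 h and within each later pair of times. The fit draws each gene's spread toward that of genes of similar expression, with 6.04 prior beside 3 residual degrees of freedom. Real change of the effect with time counts in the spread and cannot be told apart from noise. The whole course held 8 groups of 2 arrays, among them a pair at 0 h with M-CSF and no RANKL, and αKG arrays at 0.5 h and 1 h that have no DW array at their times. Of 22180 genes with a feature that carries exactly 1 gene symbol, 15526 remained after the lowest 30% by mean expression were left out, and each gene was read from its brightest feature. Expression and differences are on a log2 scale throughout, and a difference is αKG minus DW.

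α-Ketoglutarate, also called 2-oxoglutarate, is an intermediate of the tricarboxylic acid cycle and the co-substrate of a large family of oxygen-dependent hydroxylases and demethylases; the methyl ester enters cells. RANKL acts through its receptor RANK and TRAF adaptors on NF-κB, AP-1 and then NFATc1, the transcription factor that switches on the osteoclast genes. NRF2, a transcription factor held back by KEAP1 until cells meet oxidants or electrophiles, drives genes of glutathione synthesis and detoxification, and it restrains osteoclast formation in mice.

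Macrophage markers were high on these arrays. The 11 measured macrophage markers, among them Csf1r, the M-CSF receptor, averaged 10.75 and 10.78 in αKG at 3 h and 6 h, against 10.88 and 10.94 in DW. None of the 11 passed the test described next, and neither did any tested marker of neutrophils, T and NK cells, B cells, erythroid cells and megakaryocytes, mast cells and basophils, stroma or dendritic cells. Of the 11 macrophage markers, 7 were lower with αKG at both times and 1 was higher at both, where 31.6% and 27.3% of all genes tested were; the part of this shift in the lowered myeloid genes below was not tested. In bulk RNA of this kind, fewer cells of a type and less RNA per cell cannot be told apart. Each of the 4 arrays correlated at 0.983 to 0.985 on average with the other 15 arrays. The SD of the difference over all genes tested was 0.22 at 3 h and 0.26 at 6 h, against 0.20 between the 2 arrays at 0 h, and the median difference was -0.01 at 3 h and -0.0041 at 6 h.

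At 3 to 6 h, αKG raised the cystine transporter gene Slc7a11 above all others, together with genes of glutathione synthesis and peroxide repair, the chemokine gene Cxcl2, the prostaglandin synthase gene Ptgs2 and the kinase gene Plk2. It lowered a set of membrane, protease and acute-phase genes, led by Adgre4, Mmp14, Saa3 and Tmem176b. In a limma fit of the 12 arrays at the 6 times that both treatments share, with time as a block, 15 genes were higher with αKG (0.0966% of 15526 tested) and 10 were lower (0.0644%) at an adjusted p under 0.05. Of the 15, 1 has a clone name and is not named here. As a description with no test, 10 genes were at least 2-fold higher at both 3 h and 6 h (0.0644%) and 5 were at least 2-fold lower at both (0.0322%); the test had called 8 of the 10 and 4 of the 5. Where arrays of the treatments are said below not to overlap, this too is a description. Called genes were selected for their difference on these arrays, and the share of all genes without overlap was not counted. The number of calls depended on the pairs of arrays in the fit: 2 genes passed without the 3 h pair, 0 without the 6 h pair and 0 when 12 h was left out. Omitting the pair at 24 h gave 4, omitting that at 48 h gave 149 and omitting that at 72 h gave 144. Without the block for time, 0 genes passed limma, and with only the 4 early arrays, which leave 1 residual degree of freedom, 613 did.

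**Figure D1:**
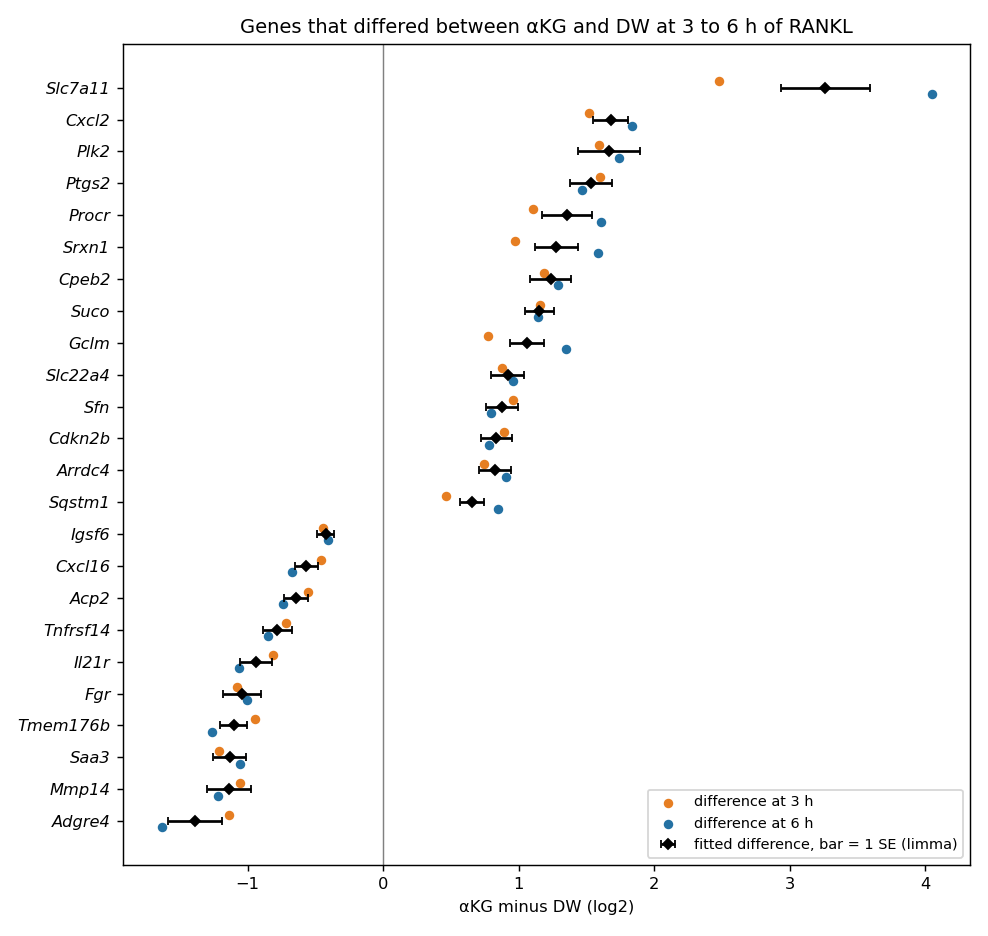
Differences (log2, αKG minus DW) of the 24 named genes past the adjusted p of 0.05, with orange points for 3 h, blue points for 6 h, and diamonds with a bar of 1 standard error for the limma estimate. Slc7a11 stands apart at 2.48 and 4.05, and in each gene both times lie on the same side of 0.

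The xCT transporter, encoded by Slc7a11, exchanges glutamate for cystine, the precursor of the cysteine in glutathione. Slc7a11 expression was 9.23 and 9.69 in αKG at 3 h and 6 h, against 6.75 and 5.64 in DW. Both αKG arrays lay far above both DW arrays, and αKG was higher at 6 h than at 3 h while DW was lower. The difference was 3.26 ± 0.33 (SE, adjusted p = 0.012, limma), a 9.61-fold higher level, 5.57-fold at 3 h and 16.6-fold at 6 h. Before RANKL the gene stood at 4.35 and 4.01 (DW, 0 h), and αKG arrays held 4.27 at 0.5 h and 5.07 at 1 h. Relative to the 0 h mean, the early αKG mean was 5.28 higher and the early DW mean 2.02 higher. The partner chain of the transporter, Slc3a2, read 11.37 and 11.16 in αKG, against 11.18 and 10.93 in DW, a difference that did not pass (0.21 ± 0.08, adjusted p = 0.46, limma).

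Gclm, the modifier subunit of glutamate-cysteine ligase, which makes the first bond of glutathione, read 10.50 and 11.11 in αKG, against 9.73 and 9.76 in DW. Gclm rose 2.09-fold (1.06 ± 0.12, adjusted p = 0.029, limma), with no overlap between the treatments and a larger gap at 6 h. Srxn1, sulfiredoxin, which repairs over-oxidised peroxiredoxins, read 9.45 and 10.26 in αKG, against 8.48 and 8.67 in DW. It rose 2.43-fold (1.28 ± 0.16, adjusted p = 0.036, limma), again without overlap. DW arrays of Gclm and Srxn1 stayed near their 0 h values of 9.67 and 9.64 for Gclm and 8.43 and 8.24 for Srxn1, so for these 2 genes the early change with RANKL alone was small, 0.09 and 0.24.

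The start regions of these 3 genes are shown because the genes rose together and share membership in the NRF2 list. Each sequence is the RefSeq promoter window on GRCm38.p6, 250 bases before and 50 bases after the annotated start, written 5′ to 3′ in the sense of the gene. For Slc7a11 (chr3:50443564-50443863, minus strand) capitals mark both matches to the C/EBP-ATF element TGATGNAA, and for Gclm (chr3:122245307-122245606, plus strand) and Srxn1 (chr2:152105274-152105573, plus strand) they mark the antioxidant response element core TGACNNNGC, the motif that NRF2 with a small MAF protein binds.
Slc7a11: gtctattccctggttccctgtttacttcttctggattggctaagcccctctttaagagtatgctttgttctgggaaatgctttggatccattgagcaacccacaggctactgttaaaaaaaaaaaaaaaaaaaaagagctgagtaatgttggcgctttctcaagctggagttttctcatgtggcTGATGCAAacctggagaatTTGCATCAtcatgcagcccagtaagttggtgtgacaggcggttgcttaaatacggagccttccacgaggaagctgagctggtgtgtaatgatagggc
Gclm: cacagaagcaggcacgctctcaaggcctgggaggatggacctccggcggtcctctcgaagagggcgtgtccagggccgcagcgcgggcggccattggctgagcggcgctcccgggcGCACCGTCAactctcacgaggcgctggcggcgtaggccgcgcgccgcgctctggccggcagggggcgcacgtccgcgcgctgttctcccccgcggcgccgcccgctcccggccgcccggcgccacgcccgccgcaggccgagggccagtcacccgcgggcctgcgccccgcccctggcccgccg
Srxn1: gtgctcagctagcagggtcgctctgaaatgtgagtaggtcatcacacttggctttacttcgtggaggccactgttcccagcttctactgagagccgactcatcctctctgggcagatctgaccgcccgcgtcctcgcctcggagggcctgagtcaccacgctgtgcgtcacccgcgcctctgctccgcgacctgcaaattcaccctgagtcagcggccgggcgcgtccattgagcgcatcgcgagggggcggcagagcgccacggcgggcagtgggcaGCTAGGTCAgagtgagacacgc
Both strands were searched. In Slc7a11 the 2 matches begin at -66 and -47 relative to the start and lie on opposite strands, and the window holds no antioxidant response element core. In Gclm the match begins at -134, and in Srxn1 at 29, while Srxn1 also holds 2 AP-1 elements (TGANTCA) at -102 and -45 that do not overlap it. The core TGACNNNGC occurs in 12.4% of all 32851 promoter windows, in 16.3% of the windows of 12077 tested genes, in 5 of the 14 windows found for genes raised by αKG, and in 0 of the 9 found for lowered genes. It was in 5 of the 16 windows found for the NRF2 list, 6 of the 20 for the ATF4 list and 5 of the 17 for the interferon-stimulated list. TGATGNAA occurs in 3.97% of all windows, in 2.99% of those of tested genes, in 2 of the 14 and in 0 of the 9. It was in 2 of the 16 windows for the NRF2 list, 6 of the 20 for the ATF4 list and 1 of the 17 for the interferon-stimulated list. A match describes letters only, and binding was not measured.

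Of the 26 listed NRF2 target genes, 22 were measured and 21 tested, and 3 of the 21 passed, all higher: Slc7a11, Srxn1 and Gclm. The list was higher with αKG at both times in 18 of 21 genes (27.3% of all genes tested) and lower at both in 0 of 21 (31.6% of all genes). Its median difference was 0.30 at 3 h and 0.72 at 6 h. In 21 of 21 genes the signed difference was higher at 6 h than at 3 h, against 51.7% of all genes. Ptgr1, a reductase of reactive lipid aldehydes and prostaglandins, differed by 0.65 and 1.11 (adjusted p = 0.077, limma). Gsr, glutathione reductase, differed by 0.54 and 0.97 (adjusted p = 0.091, limma). Hmox1, the heme-degrading heme oxygenase 1, read 11.65 and 12.13 in αKG, against 11.03 and 10.83 in DW, which is 1.95-fold higher without passing (adjusted p = 0.12, limma). Txnrd1 (thioredoxin reductase) differed by 0.54 and 0.91, Nqo1 (quinone reductase) by 0.30 and 1.20, and Osgin1 by 0.54 and 1.06, with adjusted p of 0.19, 0.34 and 0.34 in the same fit. Of the NADPH-producing enzymes, Me1 differed by 0.59 and 0.72 and Pgd by 0.24 and 0.42. Taldo1, of the same pentose phosphate route as Pgd, differed by 0.05 and 0.51. Fth1, ferritin heavy chain, was the member with the smallest fitted difference (0.03 ± 0.05).

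**Figure D2:**
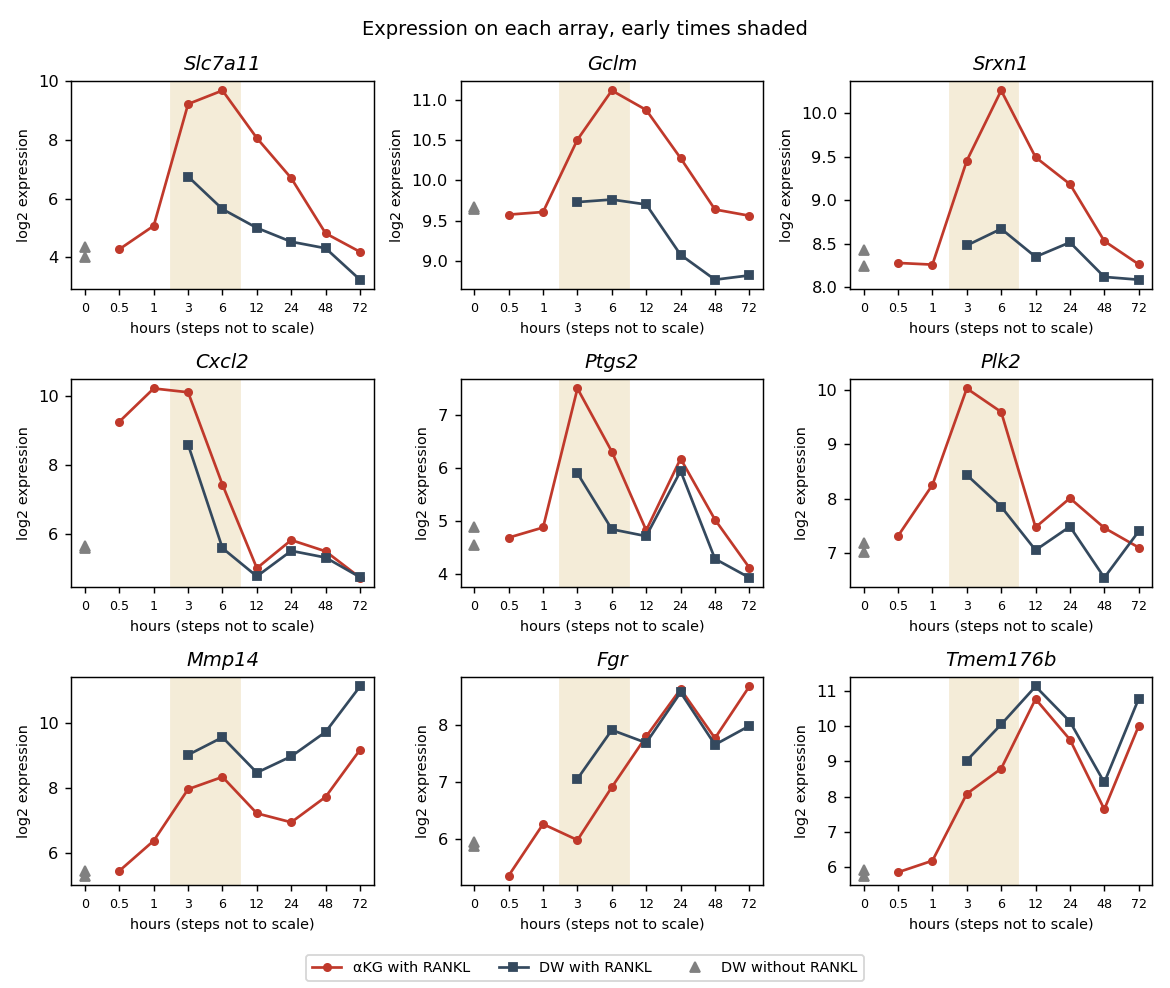
log2 expression of 9 genes on every array against hours, with red circles for αKG with RANKL, dark squares for DW with RANKL, grey triangles for the 2 arrays at 0 h, and shading at 3 h and 6 h. Slc7a11, Gclm and Srxn1 peak at 6 h of αKG (9.69, 11.11 and 10.26), whereas Cxcl2 is highest at 1 h of αKG (10.23) and Mmp14 is lower in αKG at both early times.

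The list of cystine uptake and glutathione synthesis shares 4 genes with the NRF2 list. Of its 14 genes 13 were tested, and 2 passed, the Slc7a11 and Gclm already given. Gclc, the catalytic subunit that pairs with Gclm, read 8.61 and 9.10 in αKG, against 8.18 and 7.99 in DW (0.77 ± 0.20, adjusted p = 0.29, limma). Slc1a4, a neutral amino acid transporter, differed by 0.53 and 0.88, and Gss, glutathione synthetase, by 0.21 and 0.72. The peroxidases that spend glutathione differed little and in the other direction, Gpx1 by -0.10 and -0.28 and Gpx4 by -0.14 and -0.15.

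Of the 14 tested regulators of NRF2, 1 passed. Sqstm1, which encodes p62, an autophagy receptor that binds KEAP1 and also joins TRAF6 in RANK signalling, read 11.84 and 12.04 in αKG, against 11.38 and 11.19 in DW. It rose 1.58-fold (0.66 ± 0.09, adjusted p = 0.037, limma) with the treatments apart at both times. The NRF2 gene itself, Nfe2l2, read 10.41 and 10.22 in αKG, against 10.35 and 9.84 in DW, and Keap1 read 7.49 and 8.04, against 7.59 and 7.93. Neither passed (0.22 ± 0.10 and 0.00 ± 0.12), and Mafg, a small MAF partner, stood at 0.36 and 0.93 without passing (adjusted p = 0.20, limma).

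ATF4, which is translated when amino acids run short or the endoplasmic reticulum is stressed, drives amino acid transport and synthesis genes and shares Slc7a11 with NRF2. In the lists used here, Slc7a11 was counted with the NRF2 targets and with cystine uptake, not with ATF4. None of the 24 tested genes of the ATF4 list passed (10 at an unadjusted p under 0.05), but 19 of 24 were higher at both times and 1 was lower at both, beside 27.3% and 31.6% of all genes. Slc38a2, the amino acid transporter SNAT2, came closest, with 10.35 and 10.30 in αKG against 9.51 and 9.57 in DW (0.79 ± 0.12, adjusted p = 0.055, limma). Atf3 differed by 0.65 and 1.11, Atf4 by 0.63 and 0.54, Asns by 0.53 and 0.93 and Mthfd2 by 0.49 and 0.82. Ddit3, which encodes the stress factor CHOP, differed by 0.10 and -0.17.

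Chemokine genes split. Cxcl2, which draws neutrophils through CXCR2, read 10.12 and 7.44 in αKG, against 8.60 and 5.60 in DW. At each time αKG was higher, although the 6 h αKG array lay below the 3 h DW array because levels were lower at 6 h than at 3 h in both treatments. The difference was 1.68 ± 0.13 (adjusted p = 0.0067, limma), 3.20-fold, with the smallest adjusted p of all genes named. Cxcl2 stood at 5.65 and 5.59 at 0 h and at 9.27 and 10.23 in αKG at 0.5 h and 1 h, times without a DW array. Cxcl16, a membrane-bound chemokine that also takes up oxidised lipoprotein, went the other way, with 9.97 and 10.06 in αKG against 10.43 and 10.73 in DW (-0.57 ± 0.08, adjusted p = 0.045, limma).

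Of the 13 CXC genes, 11 were tested, and apart from these 2 none passed. The interferon-induced chemokines that call T cells through CXCR3 were lower with αKG at both times without passing, Cxcl9 by -0.55 and -0.36, Cxcl10 by -0.48 and -0.36 and Cxcl11 by -0.56 and -0.68. Cxcl3, a close relative of Cxcl2, fell under the filter on mean expression and was not tested, and its levels were 7.11 and 6.43 in αKG, against 5.88 and 3.97 in DW. Probes of Cxcl2 and Cxcl3 may share sequence. None of the 11 tested CC chemokines passed (5 at an unadjusted p under 0.05). Ccl3 differed by 0.26 and 1.39 and Ccl4 by 0.29 and 1.09, while Ccl5 differed by -0.62 and -0.69. Tnf, the cytokine gene, differed by 0.29 and 1.18 and Il1b by 0.06 and 0.04.

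Ptgs2, the inducible cyclooxygenase that starts prostaglandin synthesis, read 7.50 and 6.30 in αKG, against 5.89 and 4.84 in DW. Both αKG arrays exceeded both DW arrays, and at 6 h the DW array was back at the 0 h values of 4.55 and 4.88. The difference was 1.53 ± 0.16 (adjusted p = 0.012, limma), 2.89-fold. It was the 1 member of 16 tested prostaglandin genes that passed. Pla2g4a, the phospholipase that frees arachidonic acid, differed by 0.19 and 1.13, Ptgir, the prostacyclin receptor, by 0.21 and 0.99, and Ptges, a prostaglandin E synthase, by 0.25 and 0.46. Ptger4, a prostaglandin E2 receptor, differed by -0.33 and -0.57.

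Procr, the endothelial protein C receptor, read 7.73 and 8.44 in αKG, against 6.62 and 6.83 in DW, and rose 2.56-fold (1.36 ± 0.18, adjusted p = 0.037, limma) with a wide gap at both times. The windows of Procr (chr2:155750967-155751266, plus strand) and Cxcl2 (chr5:90903649-90903948, plus strand) are shown because Procr holds the core TGACNNNGC as TGACTCAGC and Cxcl2 the NF-κB element GGGANTTTC, which capitals mark.
Procr: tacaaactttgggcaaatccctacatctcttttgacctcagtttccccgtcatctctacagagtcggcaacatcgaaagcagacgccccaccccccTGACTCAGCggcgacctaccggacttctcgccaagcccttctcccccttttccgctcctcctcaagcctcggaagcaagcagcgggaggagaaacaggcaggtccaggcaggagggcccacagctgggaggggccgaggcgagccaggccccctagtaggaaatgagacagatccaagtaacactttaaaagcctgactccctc
Cxcl2: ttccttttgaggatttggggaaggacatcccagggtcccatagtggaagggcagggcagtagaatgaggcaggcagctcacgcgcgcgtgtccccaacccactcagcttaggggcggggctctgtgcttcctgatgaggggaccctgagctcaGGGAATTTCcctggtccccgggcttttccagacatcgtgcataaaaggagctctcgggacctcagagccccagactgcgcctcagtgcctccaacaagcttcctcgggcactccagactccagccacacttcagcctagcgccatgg
In Procr the match begins at -154 and overlaps the AP-1 element TGACTCA at the same base. In Cxcl2 it begins at -97, and the same element occurs in 1.11% of all windows, in 1.21% of those of tested genes and in 1 of the 14 found for raised genes. The AP-1 element occurs in 7.81% of all windows, in 6.88% of those of tested genes and in 2 of the 14.

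Immediate early genes, which cells transcribe within minutes of a stimulus, showed 1 call among 21 tested. Plk2, a polo-like kinase of the stress response, read 10.02 and 9.59 in αKG, against 8.43 and 7.85 in DW, and rose 3.17-fold (1.67 ± 0.23, adjusted p = 0.037, limma). Plk3, its relative, differed by 0.59 and 1.23, Ier3 by 0.67 and 0.71 and Egr1 by 0.46 and 0.40 without passing. In all, 11 of the 21 were higher at both times and 3 lower at both, beside 27.3% and 31.6% of all genes. The ERK feedback genes, phosphatases and Sprouty proteins that damp MAP kinase signalling, had 0 calls among 16 (5 at an unadjusted p under 0.05 in limma) with 9 higher and 2 lower at both times beside the same shares of all genes, led by Dusp4 at 0.81 and 1.19 and Spry3 at 0.65 and 1.11.

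Cdkn2b and Sfn were also raised. Cdkn2b, the inhibitor p15 of CDK4 and CDK6, read 7.56 and 7.12 in αKG, against 6.67 and 6.34 in DW (0.84 ± 0.12, adjusted p = 0.037, limma). Sfn, the 14-3-3 protein sigma, known as a p53 target, read 7.91 and 7.93 in αKG, against 6.95 and 7.13 in DW (0.88 ± 0.12, adjusted p = 0.037, limma). Early DW means were 0.22 and 0.20 above the 0 h mean in Cdkn2b and Sfn, and early αKG means 1.06 and 1.08 above it. Gadd45g, a further stress and growth arrest gene, differed by 0.80 and 1.67, among the 5 highest differences at 6 h, with an adjusted p of 0.11 in limma.

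The other raised genes have varied roles. Cpeb2, which controls translation through messenger RNA tails, read 8.37 and 8.18 in αKG, against 7.18 and 6.89 in DW (1.24 ± 0.15, adjusted p = 0.032, limma). Here DW lay below the 0 h values of 8.11 and 7.83 and αKG near them. Suco, an ossification factor of the endoplasmic reticulum, read 9.09 and 8.85 in αKG, against 7.92 and 7.71 in DW (1.15 ± 0.11, adjusted p = 0.010, limma), and its differences of 1.16 and 1.14 were the most even of the group. Slc22a4, the ergothioneine transporter, read 6.50 and 7.38 in αKG, against 5.62 and 6.42 in DW, and Arrdc4, an arrestin-like gene, read 7.51 and 8.20, against 6.77 and 7.29. They rose 1.89-fold and 1.77-fold (adjusted p = 0.037 and 0.042, limma), and levels of both genes were also higher at 6 h than at 3 h in each treatment. Jag1, a Notch ligand, read 8.68 and 8.26 in αKG, against 7.22 and 5.32 in DW. Its 4.60-fold difference exceeded all but that of Slc7a11, but with 1.47 at 3 h and 2.94 at 6 h it did not pass (2.20 ± 0.36, adjusted p = 0.091, limma).

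All 10 genes lowered by αKG stood higher in early DW arrays than at 0 h, by 0.51 (Il21r) to 3.91 (Mmp14). These genes were selected for high DW relative to αKG on the same DW arrays, which favours that direction. The share of all genes tested that stood higher in early DW was not counted. Mmp14, the membrane-anchored matrix metalloproteinase of osteoclasts and macrophages, read 7.97 and 8.35 in αKG, against 9.02 and 9.56 in DW (-1.14 ± 0.16, adjusted p = 0.040, limma). Both αKG arrays were below both DW arrays, a 2.20-fold lower level. Tmem176b, an ion channel-like protein of dendritic cells and macrophages, read 8.08 and 8.80 in αKG, against 9.03 and 10.06 in DW (-1.10 ± 0.10, adjusted p = 0.010, limma). Its neighbour Tmem176a, which may share probe sequence, differed by -0.92 and -1.30 (adjusted p = 0.070). Adgre4, an adhesion receptor of the F4/80 family, read 5.42 and 5.81 in αKG, against 6.56 and 7.44 in DW (-1.39 ± 0.20, adjusted p = 0.044, limma). Saa3, an acute-phase serum amyloid gene, read 6.15 and 6.49 in αKG, against 7.36 and 7.55 in DW (-1.13 ± 0.13, adjusted p = 0.020, limma). Neither gene overlapped between the treatments, which is a description only.

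Relative to the 0 h mean, the early αKG mean of Mmp14 was 2.78 higher and the early DW mean 3.91 higher. For Tmem176b these values were 2.61 in αKG and 3.71 in DW, for Adgre4 1.44 and 2.83, and for Saa3 0.96 and 2.10. The 3 contrasts among αKG, DW and 0 h share arrays, so these values are set side by side and carry no test of their own.

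Fgr, Il21r, Tnfrsf14, Acp2 and Igsf6 were lowered as well. Fgr, a Src family kinase below integrin and Fc receptors, read 5.98 and 6.91 in αKG, against 7.06 and 7.92 in DW (-1.04 ± 0.14, adjusted p = 0.037, limma). Il21r, the interleukin 21 receptor, read 7.61 and 8.07 in αKG, against 8.42 and 9.13 in DW (-0.94 ± 0.12, adjusted p = 0.037, limma). Tnfrsf14, the costimulatory receptor HVEM, read 7.89 and 8.13 in αKG, against 8.61 and 8.97 in DW (-0.78 ± 0.11, adjusted p = 0.037, limma). As a description only, all 3 lay lower on both αKG arrays than on either DW array. Acp2, a lysosomal acid phosphatase, read 10.12 and 10.10 in αKG, against 10.67 and 10.84 in DW, and Igsf6, an immunoglobulin-like membrane protein, read 11.31 and 11.20, against 11.75 and 11.61. They fell by 0.65 and 0.42 with adjusted p of 0.037 and 0.042 in limma. Fgr, a kinase and not a receptor, was the 1 call among 19 tested genes of the list of Fc, scavenger and complement receptors. In this list 11 were lower and 2 higher at both times, beside 31.6% and 27.3% of all genes. Tnfrsf14 was the 1 call among 14 MHC class II and costimulation genes, of which 7 were lower and 0 higher at both times, beside the same shares. Acp2 was the 1 call among 22 lysosome genes, of which 14 were lower and 3 higher at both times, again beside these shares.

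Interferon-stimulated genes were mostly a little lower with αKG. None of the 22 tested passed (9 at an unadjusted p under 0.05, limma), yet 18 of 22 were lower with αKG at both times, beside 31.6% of all genes, and 0 of 22 were higher at both. The median difference was -0.44 at 3 h and -0.25 at 6 h. Gbp5, a guanylate-binding protein, differed by -0.57 and -0.82, Ifit2, an antiviral translation inhibitor, by -0.84 and -0.59, and Irf1, an interferon regulatory factor, by -0.58 and -0.54. With quantile normalization 17 of 22 were lower at both, and with centring of each array on its median 18. The interferon response element GAAANNGAA is held by 11 of the 17 windows found for the list, by 8.56% of all windows and by 8.50% of those of tested genes.

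**Figure D3:**
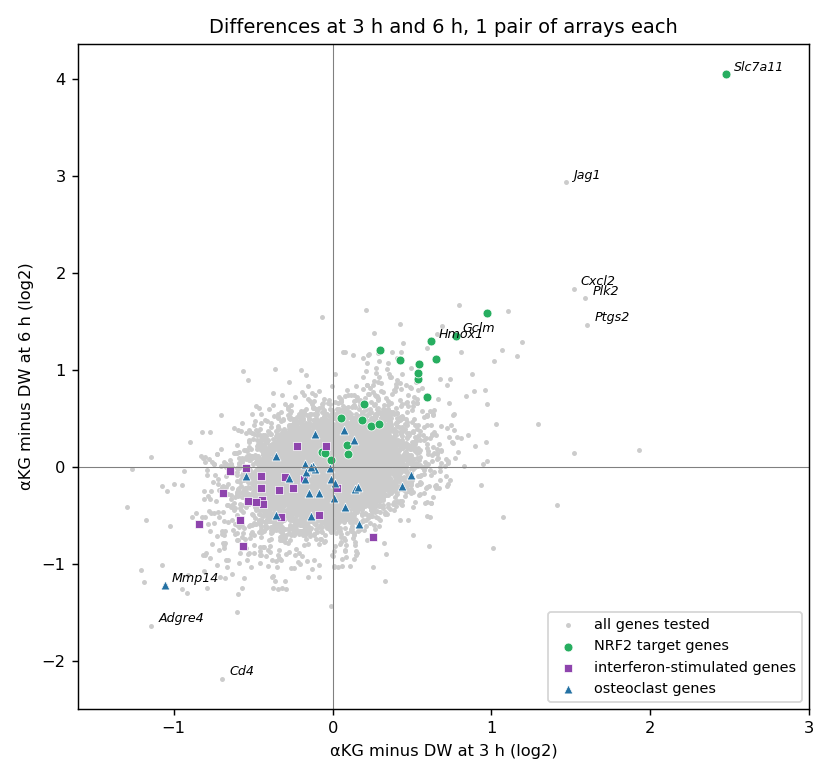
Difference at 3 h (horizontal) against difference at 6 h (vertical), both log2 and αKG minus DW, for 15526 tested genes in grey, NRF2 targets as green circles, interferon-stimulated genes as purple squares and osteoclast genes as blue triangles. Slc7a11 lies at 2.48 and 4.05, 18 of 21 NRF2 targets lie above 0 at both times, and 18 of 22 interferon-stimulated genes lie below 0 at both.

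Of 27 osteoclast genes tested, Mmp14 was the 1 call at 3 to 6 h. Another count is of direction: 12 were lower at both times and 2 higher at both, beside 31.6% and 27.3% of all genes, with a median difference of -0.07. Nfatc1 read 7.41 and 7.81 in αKG, against 7.82 and 8.26 in DW, a difference of -0.43 ± 0.09 that did not pass (adjusted p = 0.19, limma). Mmp9, the gelatinase of osteoclasts, differed by -0.36 and -0.49. Acp5, which encodes tartrate-resistant acid phosphatase, differed by 0.01 and -0.32, and Ctsk, the gene of cathepsin K, which cuts collagen, by 0.08 and -0.41; both stood near their 0 h level in either treatment. Tnfrsf11a, the gene of RANK, read 8.36 and 8.39 in αKG, against 8.63 and 8.51 in DW (-0.19 ± 0.13), and Irf8, a repressor of osteoclast formation, read 7.61 and 8.21, against 8.20 and 8.43.

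NF-κB and AP-1 genes, which act below RANK, did not pass either. Of the 14 tested genes of the RANK receptor and TRAF adaptor list, 1 passed, the raised Sqstm1 given above, beside 0.0966% of all genes. None of 17 NF-κB subunits and inhibitors was called in limma (3 at an unadjusted p under 0.05), with 6 higher and 5 lower at both times, again beside 27.3% and 31.6%. Nfkb2, the precursor of the alternative pathway, read 9.16 and 9.38 in αKG, against 9.29 and 9.25 in DW, both treatments well above the 0 h values of 6.76 and 6.92. Nfkbia, the NF-κB inhibitor and target, read 10.57 and 10.06 in αKG, against 10.40 and 10.21 in DW. Bcl3, an NF-κB partner, differed by 0.01 at 3 h and -1.03 at 6 h. Of 12 AP-1 genes 0 passed (3 at an unadjusted p under 0.05, limma). Fos, the AP-1 subunit that osteoclasts require, read 8.42 and 8.82 in αKG, against 9.22 and 8.71 in DW, so its difference was -0.81 at 3 h and 0.11 at 6 h.

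Genes of the enzymes that use or make α-ketoglutarate were largely level. Of 39 tested 2-oxoglutarate dioxygenases, 0 passed (3 at an unadjusted p under 0.05, limma). At both times 13 were higher and 13 lower, beside 27.3% and 31.6% of all genes, and the median difference was -0.02 at 3 h and 0.01 at 6 h. P4ha2, a collagen prolyl hydroxylase, differed by 0.32 and 0.64, and Tet2, which oxidises methylcytosine, by -0.60 and -0.04. Of 31 genes of the tricarboxylic acid cycle and of pyruvate and glutamate entry, 0 passed and 0 reached an unadjusted p under 0.05, and Ogdh, whose enzyme consumes α-ketoglutarate, read 10.20 and 10.20 in αKG, against 10.13 and 10.15 in DW. Slc2a1, the glucose transporter GLUT1, which is counted in the glycolysis list, differed by 0.44 and 1.28 without passing.

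**Figure D4:**
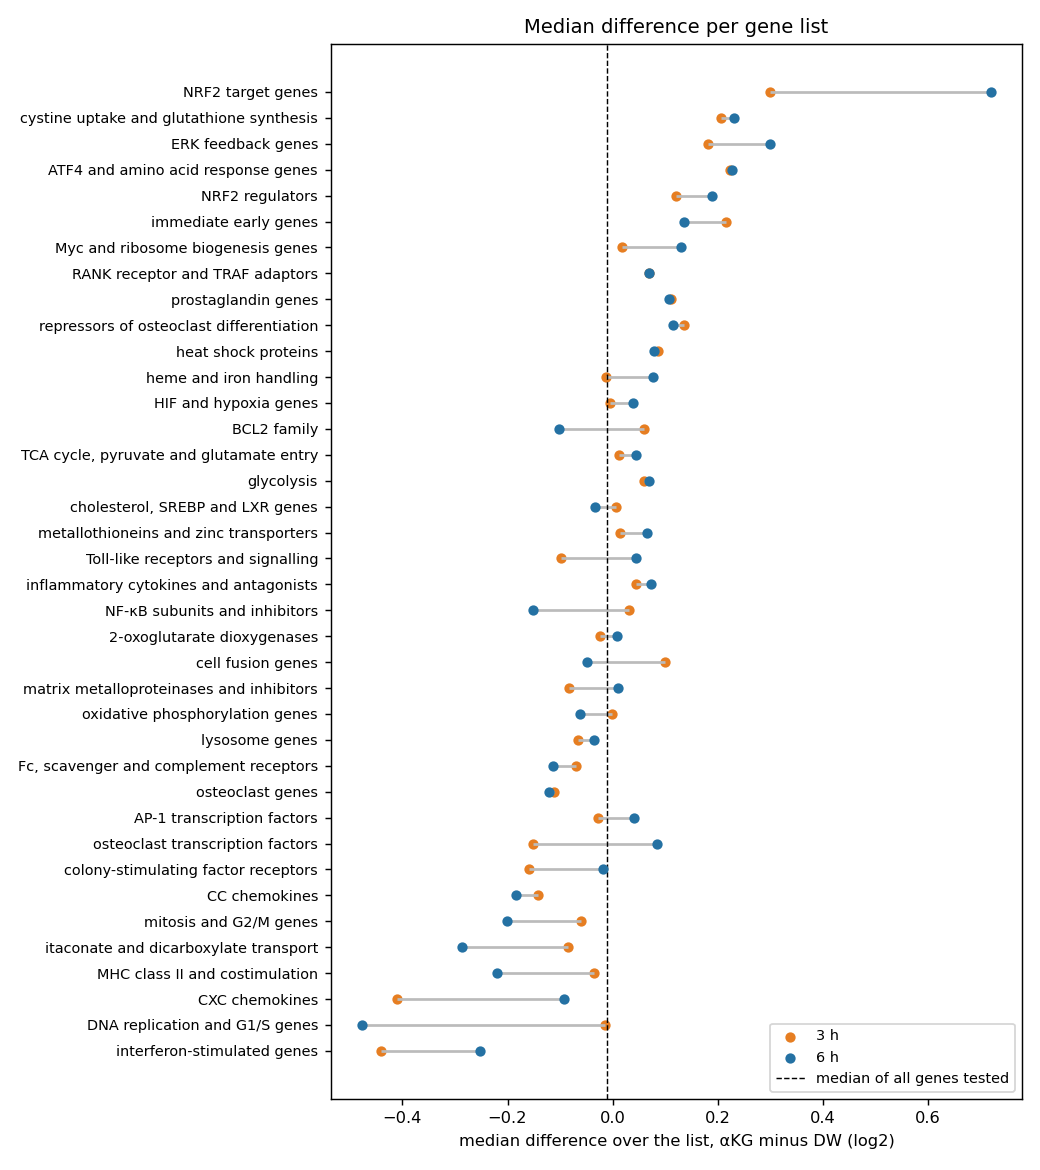
Median difference (log2, αKG minus DW) of each gene list at 3 h (orange) and 6 h (blue), ordered by the median fitted difference, with a dashed line at the median of all genes tested (-0.01). Lists of cell type markers are not shown. The NRF2 list is highest, at 0.30 and 0.72, the interferon-stimulated list is lowest by fitted difference, and DNA replication genes are near 0 at 3 h and at -0.48 at 6 h.

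Differences were wider at 6 h than at 3 h. At least 2-fold, 17 genes were higher and 12 lower at 3 h, against 47 higher and 46 lower at 6 h. For DNA replication and G1/S genes the signed difference lay lower at 6 h than at 3 h. None of the 17 passed (1 at an unadjusted p under 0.05, limma). The signed difference was higher at 6 h than at 3 h in 0 of 17, against 51.7% of all genes. Its medians were -0.01 at 3 h and -0.48 at 6 h. Cdc6, a loader of the replication helicase, read 6.86 and 6.43 in αKG, against 6.99 and 7.48 in DW. Tyms, thymidylate synthase, read 7.36 and 6.42 in αKG, against 7.31 and 7.44 in DW. The 6 h αKG array was thus the low one in both genes. Abca1, the cholesterol exporter driven by LXR, differed by -0.71 and -1.13 and Nr1h3, the LXRα gene, by -0.46 and -0.82, with adjusted p of 0.072 and 0.19 in limma.

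A few genes stood out at 1 time or narrowly missed the call. Noxred1 read 6.83 at 3 h and 4.81 at 6 h in αKG, against 4.91 and 4.63 in DW, so 1 array made its difference. Fabp4, a fatty acid binding protein of macrophages, differed by -1.17 at 3 h and -0.54 at 6 h, and Rbm44 by -1.29 and -0.41. At 6 h the lowest differences were those of Cd4, at -2.18 after -0.70 at 3 h, Adgre4, and Maf, a macrophage transcription factor, at -1.49 after -0.60. Dnmt3aos, annotated antisense to Dnmt3a, read 5.73 and 5.87 in αKG, against 6.91 and 7.05 in DW (-1.18 ± 0.22, adjusted p = 0.12, limma). Csf2rb2 and Csf2rb, related receptor chains for GM-CSF family cytokines whose probes may share sequence, differed by -0.54 and -0.96 and by -0.63 and -0.54 without passing.

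Whether the early effect differed from later ones was tested in the same fit. Against 12 to 24 h, 0 genes passed (910 at an unadjusted p under 0.05, limma), so no early difference is shown to differ from the one at 12 to 24 h, although 18 passed with the 48 h pair left out and 11 with the 72 h pair left out. For Slc7a11 the difference was 3.26 early and 2.62 at 12 to 24 h, for Gclm 1.06 and 1.19, for Cxcl2 1.68 and 0.27, and for Mmp14 -1.14 and -1.64.

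Against 48 to 72 h, the early effect was higher in 40 genes (0.258% of 15526) and lower in 54 (0.348%). Of the 24 named genes with an early call, 7 were among the 94. Cxcl2 differed by 1.68 early and 0.08 late (1.59 ± 0.19 between them, adjusted p = 0.016, limma), Cdkn2b by 0.84 early and -0.46 late, and Slc22a4 by 0.92 early and -0.32 late. Fgr differed by -1.04 early and 0.40 late (-1.44 ± 0.20, adjusted p = 0.026, limma) and early effects lay below late ones also in Cxcl16, Tnfrsf14 and Igsf6, by -0.93, -0.95 and -0.62. Slc7a11, at 3.26 early and 0.73 late, fell just short in this contrast (2.53 ± 0.47, adjusted p = 0.053, limma), and Mmp14, at -1.14 early and -1.97 late, did not pass. The count of 94 became 1 without the 3 h or the 6 h pair. It became 29 when either 12 h or 24 h was left out, 1504 when 48 h was, 142 when 72 h was, and 0 without the block for time.

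Of the 27 osteoclast genes tested, 9 were among the 40 genes higher early, beside 0.258% of all genes tested. In the other direction, 1 of the 27 was among the 54 genes lower early, beside 0.348%. Dcstamp, the fusion protein DC-STAMP, differed by -0.04 early and -2.14 late (2.10 ± 0.19, adjusted p = 0.014, limma). Myo1d, a myosin, differed by 0.21 early and -2.49 late, and Itgb3, the β3 integrin, by -0.21 early and -2.25 late. Oscar, the osteoclast-associated receptor, had the highest value of this contrast, 0.23 early and -2.79 late. Its early levels were 3.77 and 4.12 in αKG, against 3.69 and 3.73 in DW, all under the limit of 4.34 on mean expression, so it was tested through its late levels alone and its early difference carries little. The osteoclast list had medians of -0.11 and -0.12 at 3 h and 6 h, against -1.36 and -1.55 at 48 h and 72 h. The NRF2 list had medians of 0.42 and 0.29 at 48 h and 72 h, and 0 of its 21 genes passed this contrast.

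**Figure D5:**
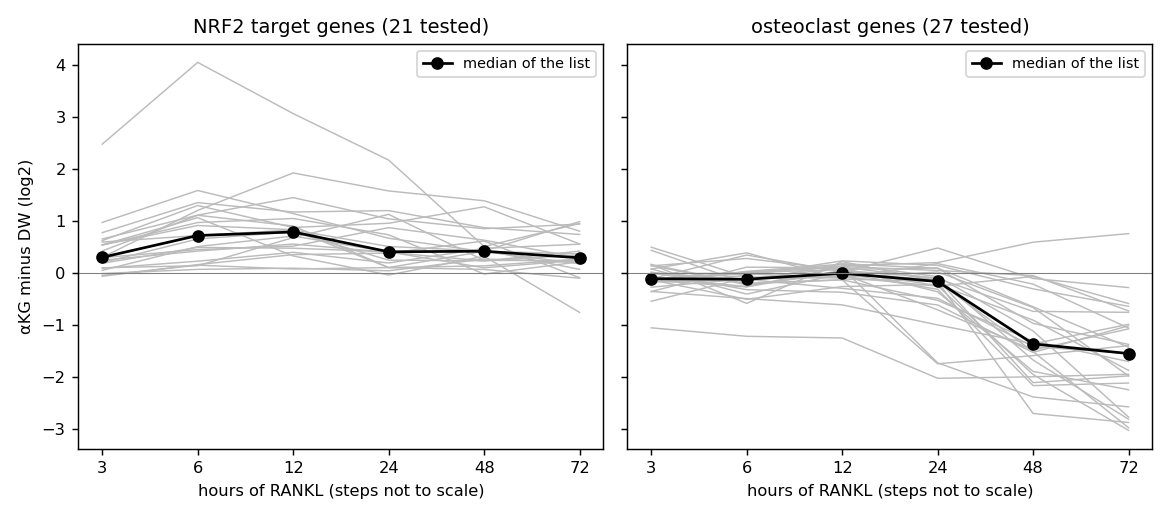
Difference (log2, αKG minus DW) at each of the 6 shared times, in hours, for 21 NRF2 target genes on the left and 27 osteoclast genes on the right, with grey lines for genes and black circles for the median. The NRF2 median is highest at 6 h and 12 h (0.72 and 0.79), and the osteoclast median stays between -0.16 and -0.01 up to 24 h and reaches -1.36 at 48 h.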

How the data were processed

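Total RNA of each sample was reverse transcribed, labelled with biotin through terminal transferase in a whole-transcript kit and read on 1-colour arrays, per the labels' protocols. The authors deposited 1 table of log2 values for 16 arrays. No source states the base of the log, which was read from the lowest and highest value (0.613 and 13.25), and the array medians of 4.84 to 4.93 are alike. For the summarisation, background correction, normalization and build, the answer is the same: not given in the sources used here. Precision is limited by the number of arrays, and no background level is known for any gene. Table columns that belong to no sample of the series numbered 0.

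Of 33793 features, 23521 carried 1 gene symbol, 1814 carried several and 8458 carried none here; 1082 of the 22180 genes had more than 1 feature. Genes up to 4.34 in mean expression, the lowest 30%, were left out. limma 3.58.1 in R 4.3.3 (lmFit, eBayes with a trend) was fitted to 12 arrays with time as a block and 1 αKG effect for each of 3 phases, which left 3 residual degrees of freedom, and p-values were adjusted by Benjamini-Hochberg over all 15526 genes tested, at 0.05. The code was tested on simulated data with known differences. The pairing by time comes from the labels, and deviations from the treatment means correlated at 0.502 to 0.749 between arrays of the same time. These deviations hold the change with time that both treatments share, so they cannot show whether cultures were paired. Errors are standard errors of the fit.

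Genes named are those past the threshold, the 10 highest and 10 lowest by the smaller of the 2 early differences, the 5 highest and 5 lowest at 3 h alone, at 6 h alone and in each contrast between phases, up to 6 members of each discussed list by the smallest p, any measured member of 9 lists central to the question, and 19 fixed anchors. Genes with a clone, predicted, microRNA or snoRNA name were counted and left unnamed. Asns, Ddit3, Ier3, Ifit2, Il1b, Mthfd2, Ogdh and Cxcl3 were named after their values were seen. The 46 lists hold 756 different genes, of which 692 were measured and 652 tested. Lists were described by counts and medians, without a set test. The members and lists were chosen with earlier results of these data known. Alternatives were other filters, quantile normalization, median centring, other eBayes settings, the 4 early arrays alone, no block, the mean over a gene's features, and leaving out each pair of arrays. Promoter sequences are RefSeq's for GRCm38.p6, matched by symbol.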

Additional observations from a re-analysis of the deposited data

Results flagged for a closer look

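The early (3 to 6 h) and late (48 to 72 h) αKG effects differed in 94 genes in limma. In 7 genes with an early call the contrast of early minus late passed: 1.59 for Cxcl2, 1.29 for Cdkn2b, 1.23 for Slc22a4, -0.62 for Igsf6, -0.93 for Cxcl16, -0.95 for Tnfrsf14 and -1.44 for Fgr. The 5 highest contrasts were 3.02 for Oscar, 2.70 for Myo1d, 2.24 for Steap4, 2.10 for Dcstamp and 2.04 for Itgb3, all with an early difference between -0.21 and 0.23. All early levels of Oscar and Steap4 lay under 4.34, the limit set on mean expression, so both were tested through their late levels alone. The 5 lowest were -1.61 for Rasgrp3, -1.55 for Platr25, -1.52 for Ceacam1, -1.48 for Klra2 and -1.46 for Slc6a12; of these, Platr25 had early differences of -0.63 and -1.10, and Klra2 belongs to a family of near-identical genes whose probes may share sequence. Of the features outside the gene table, 3 differed at least 2-fold at both early times, 2 higher among 1182 that carry several symbols and 1 lower among 3818 that are unnamed here.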

How the results depend on the processing

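The early calls numbered 25. They were 23 with no filter, 20 with quantile normalization, 22 with median centring, 24 with robust eBayes and 25 with the mean over a gene's features, against 5 with the lowest 50% left out, 6 without the intensity trend, 613 with the 4 early arrays alone and 0 with no replicate block. Leaving out 1 pair of arrays gave 0 to 149. The early minus intermediate count of 0 changed only without a late pair, to 0 to 18 over the pairs. The early minus late count of 94 was 17 without the trend, 0 with no replicate block, and 1 to 1504 without 1 pair. At least 1.5-fold at both times, 81 genes differed, against 15 at 2-fold. The 24 named calls kept their direction in each alternative that tested them. This carries little weight, because both early differences of each call share a sign and most alternatives leave the estimate unchanged. Of these calls, 22 passed with no filter, 19 with quantile normalization, 21 with centring and 5 with the lowest 50% left out. Genes without a call were not selected for a shared sign. Over the pairs left out, Acp5 ran between -0.322 and 0.012, Ctsk between -0.407 and 0.0768, and Fos between -0.806 and 0.109. The sign turned in 1 case for each. The causes were not tested. With 1 array per treatment and time, each early estimate rests on 2 differences, and dim genes such as Oscar have no measured background.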

Other observations

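Of 14 tested heat shock proteins, 0 passed (1 at an unadjusted p under 0.05, limma), and 10 were higher and 0 lower at both times, beside 27.3% and 31.6% of all genes, with a median difference of 0.07. Further, of 22 oxidative phosphorylation genes 0 passed and 0 reached an unadjusted p under 0.05 in limma. Of 17 Myc and ribosome biogenesis genes, 0 passed (3 at an unadjusted p under 0.05, limma). At both times 9 were higher and 2 lower, beside 27.3% and 31.6% of all genes. Myc itself read 8.84 and 8.99 in αKG at 3 h and 6 h, against 8.71 and 7.83 in DW. The αKG array at 6 h thus lay above the DW array at that time by 1.16. Of 19 mitosis and G2/M genes, 0 passed and 0 reached an unadjusted p under 0.05 in limma. At both times 15 were lower and 2 higher, beside 31.6% and 27.3% of all genes. With quantile normalization 14 of 19 were lower at both, and with centring of each array on its median 12. The median differences were -0.06 at 3 h and -0.20 at 6 h. Acod1, which makes itaconate from aconitate, read 10.41 and 10.25 in αKG, against 10.33 and 9.64 in DW, far above the 0 h values of 5.52 and 5.69 in both treatments. Mertk, a receptor for the clearance of dying cells, read 7.34 and 7.47 in αKG, against 7.95 and 8.22 in DW, and both treatments lay below the 0 h values of 8.43 and 8.45.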
